A study of Mus musculus with 12 samples.

Results

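The interferon-activated p200 genes considered here were Ifi213, Ifi203, Ifi204, Ifi205, Mndal and Aim2, a set of 6 genes whose probes were found in the array's annotation by their current or an earlier symbol. Of these 6 genes, 5 had a probe on the array, with 11 probes in all, out of 19057 genes with a named probe. Ifi203 had no probe under its name or gene number in that annotation and was not analysed here. The set was assembled because Ifi213 had been seen to be lower in Topaz1-/- than in wild-type testes at 20 days, so the values of that comparison are given for Ifi213 as a description, with no test.

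Whole testes of Topaz1-/- (KO) and wild-type (WT) C57Bl/6N mice were sampled at 15 and at 20 days after birth (P15 and P20), with 3 biological repeats in each of the 4 groups and 1 Illumina bead array per repeat. All mice carried the same strain label, no agent was given, and the labels do not describe the Topaz1 allele further. The array had 0 probes annotated to Topaz1, so the genotype labels were not checked against the targeted transcript. Markers of testis cells were present: 8 of 12 germ cell genes and 9 of 9 measured Sertoli cell genes were above background in at least 1 whole group. In whole tissue, fewer cells of a type and less RNA per cell cannot be told apart.

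Proteins of the p200 family, also called PYHIN proteins, carry a HIN domain that binds DNA, and most also carry a pyrin domain that binds other pyrin proteins. Aim2 detects double-stranded DNA in the cytosol and assembles the inflammasome, a complex that activates caspase-1. Ifi204 is regarded as the closest mouse relative of human IFI16, a DNA sensor of nucleus and cytosol, and the mouse genes lie in 1 cluster whose members arose by duplication. Many of them are induced by interferons, and they are best known from macrophages and other blood cells rather than from the testis. The study's title describes Topaz1 as specific to germ cells and required for meiosis in males. In mice of these ages spermatocytes of the first wave are passing through meiotic prophase, and some reach the meiotic divisions at the later age.

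In the RefSeq gene table of assembly GRCm38.p6, 14 genes of the family stood in 1 row on chromosome 1, from Aim2 in place 1 to Ifi205 in place 14, with Ifi213 in place 4 between Ifi214 and Ifi209. Of these, 10 had a probe on the array, the 5 members above and Ifi214, Ifi209, Ifi207, Ifi211 and Ifi202b. RefSeq promoter windows, from 250 bases before to 50 bases after a gene's start, were found for 12 of the 14. The windows were read because interferon is known to act on many of its target genes through short promoter elements, and 4 of them are shown. They are those of Ifi213, the member above background, Ifi208, a close copy of its promoter, Ifi207, the other p200 gene above background, and Mndal, a member near background. In GRCm38.p6 the windows are chr1:173599223-173599522 on the minus strand for Ifi213, chr1:173673415-173673714 on the plus strand for Ifi208, chr1:173741760-173742059 on the minus strand for Ifi207 and chr1:173880138-173880437 on the minus strand for Mndal. They are written 5′ to 3′ along the gene, and capitals mark a match to the core of the interferon-stimulated response element.
Ifi213: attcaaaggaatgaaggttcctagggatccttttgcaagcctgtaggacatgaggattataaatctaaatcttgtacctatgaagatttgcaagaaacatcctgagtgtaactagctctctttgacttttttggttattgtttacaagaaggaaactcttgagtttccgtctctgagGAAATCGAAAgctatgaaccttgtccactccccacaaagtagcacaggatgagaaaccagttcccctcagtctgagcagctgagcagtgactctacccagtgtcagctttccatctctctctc
Ifi208: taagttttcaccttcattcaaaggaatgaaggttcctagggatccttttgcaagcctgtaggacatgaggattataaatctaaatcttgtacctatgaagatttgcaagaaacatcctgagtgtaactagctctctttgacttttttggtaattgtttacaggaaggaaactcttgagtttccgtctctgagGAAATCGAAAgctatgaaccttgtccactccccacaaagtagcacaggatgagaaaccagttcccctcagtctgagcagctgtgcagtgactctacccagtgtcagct
Ifi207: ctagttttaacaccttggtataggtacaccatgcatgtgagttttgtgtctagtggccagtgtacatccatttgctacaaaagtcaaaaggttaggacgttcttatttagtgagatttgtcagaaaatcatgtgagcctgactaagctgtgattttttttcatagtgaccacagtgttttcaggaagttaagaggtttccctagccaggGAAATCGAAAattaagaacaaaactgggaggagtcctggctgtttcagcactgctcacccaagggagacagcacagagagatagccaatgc
Mndal: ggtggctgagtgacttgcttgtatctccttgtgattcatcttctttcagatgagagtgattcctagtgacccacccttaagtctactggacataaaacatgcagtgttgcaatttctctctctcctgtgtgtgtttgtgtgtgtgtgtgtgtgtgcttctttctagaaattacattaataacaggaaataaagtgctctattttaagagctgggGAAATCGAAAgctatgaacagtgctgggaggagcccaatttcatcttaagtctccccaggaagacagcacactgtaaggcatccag

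The motif searched was TTTC, any 2 bases and TTTC, on both strands, and the search was chosen after the array values were seen. A match occurred in 1131 of all 32851 promoter windows of the table, or 3.44%, and in the windows of 9 of the 12 p200 genes, while Aim2, Ifi209 and Ifi202b had none. Counted from the start of the gene, the match began at position -73 in Ifi213, and in Ifi208, Ifi207 and the Mndal window above at -58, -41 and -36, with the same 10 letters, GAAATCGAAA, in these 4 genes. The second interferon motif, TTCNNNGAA, occurred in 1 of the 14 p200 windows, that of Ifi202b, and in 8.3% of all windows. A match is a description of the letters and does not show that a factor binds there. Ifi213 shared an unbroken run of 135 bases with Ifi208 and one of the same length with Ifi206, against 20 bases with Mndal and 11 with Ifi207. Ifi206 and Ifi208 had no probe under their own names, and the RefSeq table lists 1 earlier name, E430029J22Rik, for both Ifi213 and Ifi208. Since probe sequences were not used here, it was not tested whether the Ifi213 probes also bind transcripts of these copies, and the values below are those of probes annotated to Ifi213.

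Intensities were quantile-normalized and are given as log2 of the intensity plus 50. A probe was called above background on an array when it exceeded the 95th percentile of a normal curve centred on the mode of that array's log2 intensities, with the spread of the values under the mode. On the scale used here the dimmest probe above background had a log2 intensity of 7.52 to 7.55, depending on the array. Between 47.5% and 51.9% of the probes of an array were above background. Precision is limited by the number of arrays, 3 per group. Some arrays stood apart from their group in other genes: KO P20 replicate 2 and WT P15 replicate 1 were high in interferon-stimulated genes, and KO P20 replicates 1 and 3 in epididymis genes. The values of Ifi213 without them are given with the results on those genes.

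Ifi213 was lower in KO than in WT testes at P20. Its brighter probe, ILMN_1219896, had log2 intensities of 7.89, 7.84 and 7.74 in KO P20 replicates 1 to 3, against 9.03, 8.97 and 9.12 in the WT P20 replicates. On the linear scale these are intensities of 187, 179 and 164 in KO and 471, 453 and 508 in WT testes. The groups did not overlap, and every KO array stayed above background. Over all probes, 9.26% had 3 KO arrays below the 3 WT arrays at P20 and 8.72% had them above. The mean was 7.82 ± 0.07 in KO P20 and 9.04 ± 0.08 in WT P20 testes (SD, n = 3 each), a log2 change of -1.22 ± 0.09 (SE), or 2.33-fold lower. Because no background was subtracted, this scale understates the fold of a probe this dim.

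At P15 the values of Ifi213 lay closer together. The KO P15 replicates had 8.01, 8.15 and 7.96, against 8.21, 8.30 and 8.56 in the WT P15 replicates. All 3 KO arrays again lay below all 3 WT arrays (as on 5.55% of all probes, with 5.7% the other way), with the highest KO array at 8.15 and the lowest WT array at 8.21. The means were 8.04 ± 0.10 in KO and 8.36 ± 0.18 in WT testes (SD, n = 3 each). The log2 change of -0.32 ± 0.09 (SE) did not pass after adjustment over all probes (limma, adjusted p = 0.466). Without WT P15 replicate 3, the highest of these arrays, it was -0.21. At P15 2 of all probes passed, or 0.00442%, both of them lower in KO.

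**Figure D1:**
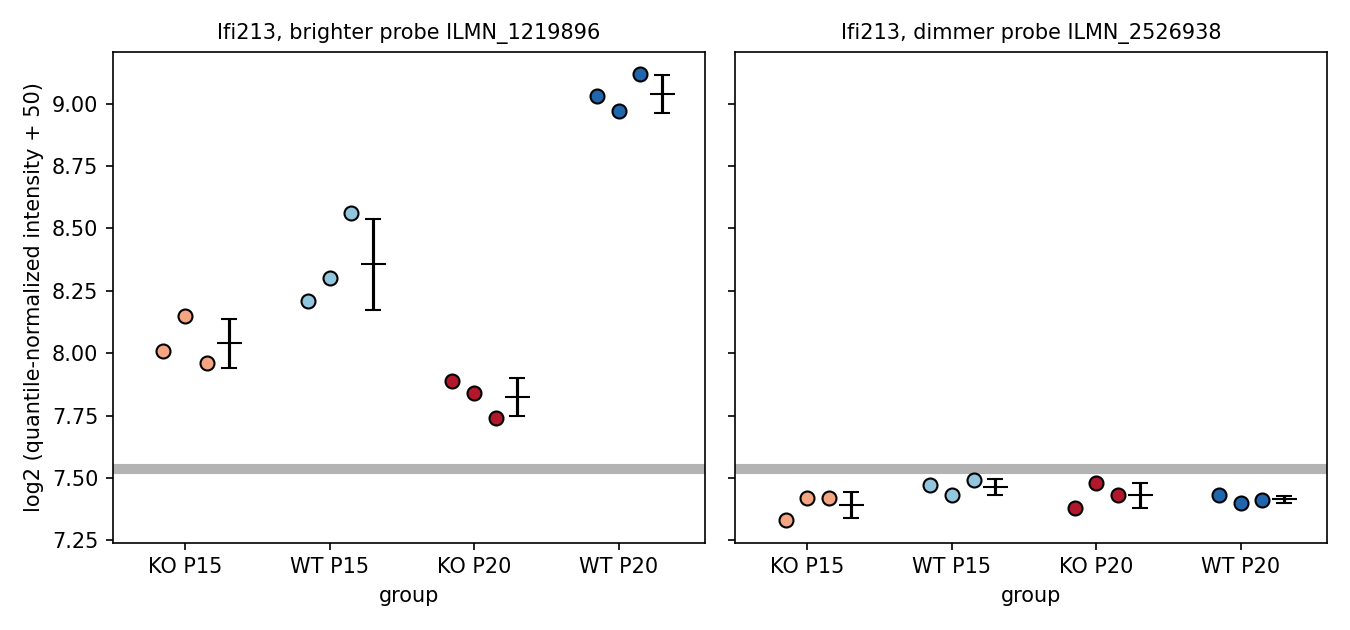
Log2 intensity of both probes annotated to Ifi213, by group. Points are the 3 arrays of a group (replicates 1 to 3 from left), bars show mean and SD, and the grey band is the range over arrays of the dimmest value above background. The brighter probe separates KO P20 (7.74 to 7.89) from WT P20 (8.97 to 9.12), and the dimmer one stays below background on all 12 arrays.

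The dimmer probe of Ifi213, ILMN_2526938, was above background on 0 of 12 arrays. It ranged from 7.33 to 7.48 over the KO arrays and from 7.40 to 7.49 over the WT arrays, and no fold is given for it. Both probes are annotated to the same transcript accession, and the annotation does not say which part of the transcript each one covers. The description of Ifi213 therefore rests on 1 probe.

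The order of the group means of Ifi213, from low to high, was KO P20, KO P15, WT P15 and WT P20. In KO testes the P20 arrays (7.74 to 7.89) lay below the P15 arrays (7.96 to 8.15), with a log2 change from P15 to P20 of -0.22 ± 0.09 (SE, n = 3 each), where 21.3% of all probes were lower without overlap. In WT testes the P20 arrays (8.97 to 9.12) lay above the P15 arrays (8.21 to 8.56), and the change was 0.68 ± 0.09, where 14% of all probes were higher without overlap. No 2 neighbouring groups in this order overlapped, although the highest KO P20 array (7.89) came close to the lowest KO P15 array (7.96). Under cyclic loess normalization the change in KO was -0.07. The age comparisons share the P20 arrays on which Ifi213 was chosen, so these values are a description.

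The other members were at background in the testis. Over the 9 probes of Aim2, Ifi204, Ifi205 and Mndal on 12 arrays, 4 of 108 values were above background, and the values ranged from 7.28 to 7.67 with a median of 7.41. Aim2, the inflammasome sensor, had 2 probes, and its brighter one ranged from 7.37 to 7.50 over the KO arrays and from 7.36 to 7.53 over the WT arrays. Both Aim2 probes were below background on every array. Ifi204, the relative of IFI16, was above background with 1 of its 2 probes on 1 array, WT P15 replicate 1, at 7.52. All 3 probes of Ifi205, a family member also known as D3, were below background on all 12 arrays.

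Mndal, named for its likeness to the human myeloid nuclear differentiation antigen, came closest to a signal. Its brighter probe, ILMN_2483422, had 7.45, 7.67 and 7.42 in the KO P20 replicates, against 7.33, 7.48 and 7.47 in the WT P20 replicates. In the KO P15 replicates it had 7.51, 7.47 and 7.54, against 7.59, 7.53 and 7.50 in the WT P15 replicates. It was above background on 3 of 12 arrays, KO P20 replicate 2 and WT P15 replicates 1 and 2, and the groups overlapped at both ages. No fold is given for these 4 genes, since both genotypes were below background on most arrays. A background signal does not show that a transcript is absent, and a low level in a few cells of a whole testis would not be detectable here.

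Counted by the probe of highest mean, 0 of the 5 measured members passed in limma at P15 (1 had an unadjusted p under 0.05, Ifi213) and 1 of 5, Ifi213, at P20. Beside the unadjusted counts here and below, 3436 of all 45281 probes at P15 and 5412 at P20 had an unadjusted p under 0.05. From P15 to P20, 15130 probes did in KO testes and 13417 in WT testes. At P20 472 of all 45281 probes passed, or 1.04%, with 0.731% higher and 0.311% lower in KO, and since Ifi213 was chosen on this comparison its count carries no further weight. Between the ages Ifi213 is left out of the count, because the P20 arrays are those on which it was chosen. Of the 4 other members 0 passed in limma in KO testes (1 with an unadjusted p under 0.05, Ifi204), where 25.6% of all probes did, and 0 in WT testes (0 with an unadjusted p under 0.05), where 20.1% did. The median log2 difference of the 5 members, KO minus WT, was -0.03 at P15 and 0.02 at P20, beside 0.0061 and 0.0029 over all genes, with 4 of the 5 genes at background.

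**Figure D2:**
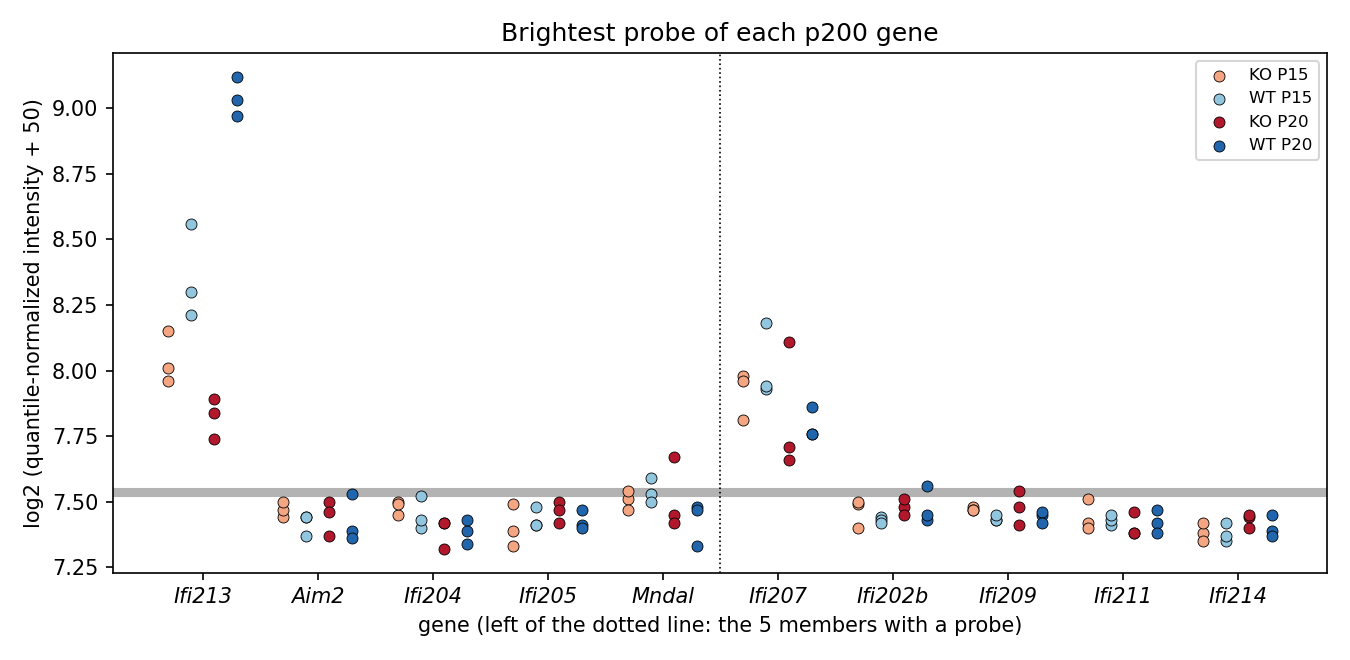
Log2 intensity of the brightest probe of the 10 p200 genes on the array, each point 1 array, coloured by group. The grey band marks the dimmest values above background on the arrays. Ifi213 and Ifi207 stand above the band on all 12 arrays, and of the others only Mndal, Ifi204 and Ifi202b reach above background on any.

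Among the 5 other p200 genes with a probe, Ifi207 was the one above background throughout. Its single probe had 7.66, 8.11 and 7.71 in the KO P20 replicates, against 7.76, 7.76 and 7.86 in the WT P20 replicates. At P15 it had 7.98, 7.81 and 7.96 in KO and 8.18, 7.93 and 7.94 in WT testes. The genotypes overlapped at both ages, and 0 of these 5 genes passed in limma at P15 or at P20 (0 with an unadjusted p under 0.05 at either age). In WT testes Ifi207 had a log2 change of -0.22 ± 0.11 (SE) from P15 to P20, which did not pass (adjusted p = 0.236), and without WT P15 replicate 1 it was -0.14 (adjusted p = 0.564). The probes of Ifi209, Ifi211 and Ifi214 were below background on all arrays, and 1 probe of Ifi202b was above it on 1 array, WT P20 replicate 1.

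The genes beside the cluster were read to see whether a wider stretch of chromosome 1 moved with Ifi213. Within 1 Mb of the outermost members, 67 other RefSeq genes were placed, 32 of them measured and 8 above background in at least 1 whole group. None of the 32 passed in limma in either genotype comparison (0 at each age, with an unadjusted p under 0.05 for 3 at P15 and 1 at P20). Over all probes 0.00442% passed at P15 and 1.04% at P20. With shares this small, 0 of 32 does not tell whether the neighbours moved. At P20 the 8 genes above background had log2 changes between -0.02 (Slamf9, a leukocyte surface receptor) and 0.50 (Dusp23, a phosphatase, adjusted p = 0.128).

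Interferon-stimulated genes were examined as a list of 54, of which 52 were measured and 36 were above background in at least 1 whole group. In limma 0 of 52 rose and 0 fell at P20 (5 with an unadjusted p under 0.05), and 0 rose and 0 fell at P15 (10 with an unadjusted p under 0.05). Of all 45281 probes, 5412 at P20 and 3436 at P15 had an unadjusted p under 0.05, and 1.04% and 0.00442% passed. The median log2 change was 0.17 at P20, with 39 positive, and -0.12 at P15, with 6 positive, beside 0.0029 and 0.0061 over all genes. The brightest members did not pass either. Irgm1, a GTPase that acts against intracellular pathogens, had 0.35 ± 0.22 (SE) at P20 and 0.37 ± 0.22 at P15, and Ifi27, an interferon-induced mitochondrial protein, -0.08 ± 0.13 and -0.09 ± 0.13 (adjusted p from 0.602 to 0.938).

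These medians moved with single arrays. On KO P20 replicate 2, 29 of the 36 genes were the highest of the 3 KO P20 arrays, and 13 of them lay more than 1 log2 unit above both others. Gbp2, a guanylate-binding protein induced by interferon gamma, had 8.46, 12.99 and 8.60 in the KO P20 replicates, against 8.48, 8.26 and 8.38 in the WT P20 replicates. Igtp, an immunity-related GTPase, had 7.78, 11.56 and 7.89 in KO P20 and 7.96, 7.86 and 7.87 in WT P20 testes. Irf1, the transcription factor that drives many interferon gamma targets, had 9.95, 12.84 and 9.60 in KO P20 and 9.73, 9.51 and 9.65 in WT P20 testes. These 3 genes, named after their values were seen, were thus high on 1 array and near the WT level on the other KO P20 arrays. Over the 36 genes the median change at P20 was 0.35, and 0.05 without KO P20 replicate 2.

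At P15 the array that stood apart was WT P15 replicate 1, where 33 of the 36 genes were the highest of the 3 WT P15 arrays. Ifit3, an antiviral protein of the type I interferon response, had 7.97, 7.88 and 7.88 in the KO P15 replicates, against 10.03, 8.28 and 8.42 in the WT P15 replicates. The median change over the 36 genes at P15 was -0.28, and -0.14 without that array.

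Ifi213 did not follow these arrays. On KO P20 replicate 2 its value of 7.84 lay between those of the other KO P20 arrays, 7.74 and 7.89, and differed from their mean by 0.02. On WT P15 replicate 1 its value of 8.21 was the lowest of the WT P15 arrays. Ifi207 was the highest of its group on both arrays, at 8.11 on KO P20 replicate 2 against 7.66 and 7.71, and at 8.18 on WT P15 replicate 1 against 7.93 and 7.94. The brighter Mndal probe was likewise highest of its group there, at 7.67 and 7.59, near background. These values lay 0.24 and 0.07 above the mean of the other 2 arrays. The dimmer Mndal probe, below background on all arrays, was lowest of its group on KO P20 replicate 2, at 7.28 against 7.40 and 7.44. On WT P15 replicate 1 it had 7.41 against 7.38 on both others. Windows of all 3 genes hold the same GAAATCGAAA match, as do windows of Ifi203, Ifi206, Ifi208 and Ifi214. Its part in these values was not tested. Without KO P20 replicate 2 the change of Ifi213 at P20 was -1.23, and without WT P15 replicate 1 that at P15 was -0.39.

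**Figure D3:**
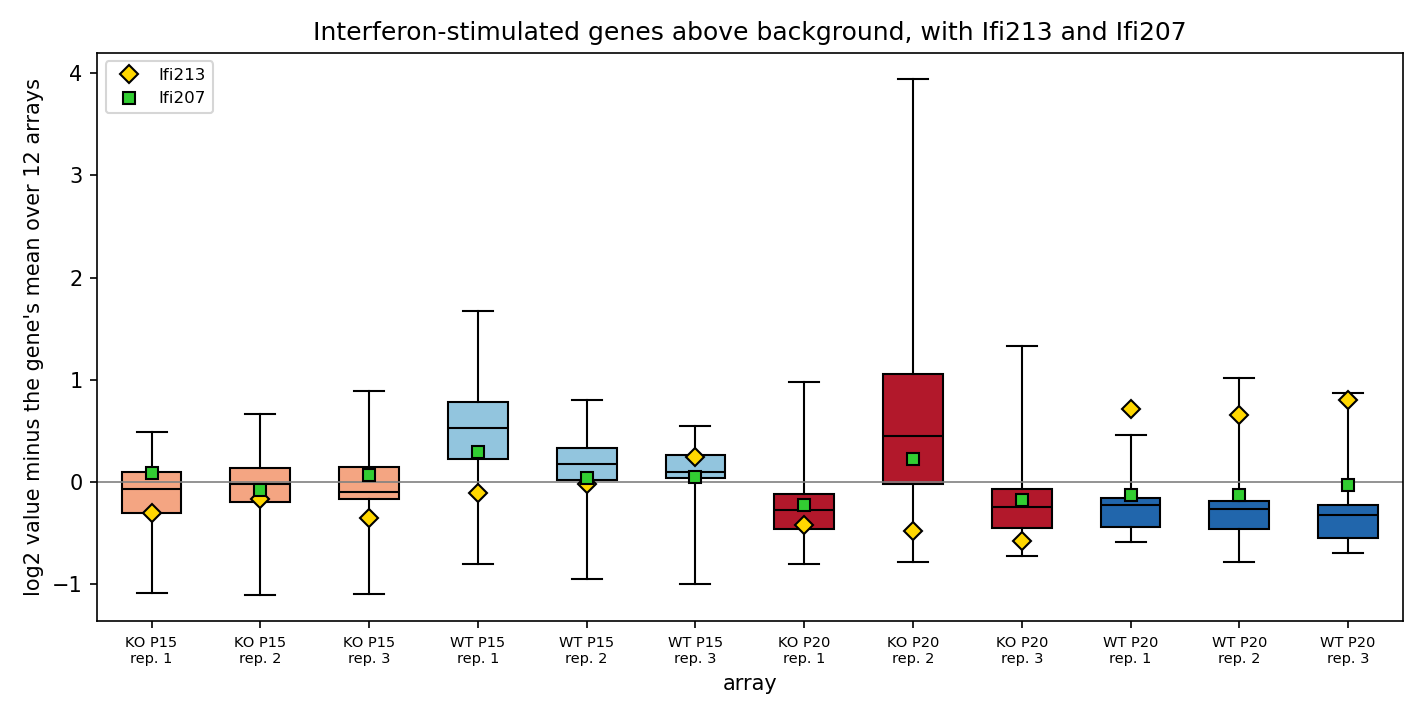
Interferon-stimulated genes by array. Boxes show, for the 36 genes above background, the log2 intensity minus the gene's mean over the 12 arrays (median, quartiles and, as whiskers, the full range), with diamonds for Ifi213 and squares for Ifi207. The boxes of KO P20 replicate 2 and WT P15 replicate 1 sit highest, Ifi207 is raised on both, and Ifi213 is high on the WT P20 arrays.

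Between the ages, 1 of the 52 interferon-stimulated genes rose and 11 fell from P15 to P20 in WT testes, beside 8.28% of all probes rising and 11.8% falling, and 40 did not pass. In KO testes 1 rose and 5 fell, beside 10.1% and 15.5% of all probes. In fits chosen after seeing the data, these counts moved with the array left out. Without WT P15 replicate 1, 9 genes fell in WT testes, where 8.39% of all probes fell. The median change of the 36 genes above background was then -0.52, beside -0.63 with that array. The drop was not particular to it, since 8 genes fell without WT P20 replicate 3, where 7.72% of all probes fell. KO P20 replicate 2 enters the shared estimate of the spread. Without it 26 genes fell in WT testes, where 11.1% of all probes fell, and 8 in KO testes, where 12.5% fell. The median change in KO testes was then -0.16, beside 0.13 with KO P20 replicate 2. B2m, the invariant subunit of MHC class I, fell by 1.24 on the log2 scale in WT testes (adjusted p = 0.000195), and by 1.20 without WT P15 replicate 1. Lgals3bp, a secreted binding protein of galectins, fell by 1.29 (adjusted p = 0.00228), and by 1.01 without that array. The rise in both genotypes was that of Dhx58, a regulator of RNA sensing, at 2.33 ± 0.14 in KO and 1.70 ± 0.14 in WT testes (adjusted p = 1.41e-06 and 1.91e-05).

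The genes that produce and relay the interferon signal were measured as a second list, with 28 of 30 on the array and 20 above background. In limma 0 passed in either genotype comparison (4 with an unadjusted p under 0.05 at P20 and 5 at P15), with median log2 changes of 0.04 at P20 and 0.01 at P15. Irf3, the factor that first switches on type I interferon genes, had 0.20 ± 0.10 at P20 and 0.29 ± 0.10 at P15 (SE), and Irf1 had 1.17 ± 0.67 at P20 and 0.05 ± 0.67 at P15. Between the ages 8 of the 28 genes fell and 1 rose in each genotype. Over all probes 15.5% fell and 10.1% rose in KO testes, and 11.8% fell and 8.28% rose in WT testes. The genes of this list that fell in both genotypes included Jak1 and Jak2, the kinases of the receptors, and Ifngr2, a subunit of the interferon gamma receptor. The gene that rose was Irf3, at 0.40 ± 0.10 in KO and 0.50 ± 0.10 in WT testes (adjusted p = 0.0134 and 0.00579).

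Partners of Aim2 and of the other DNA sensors were read too, and some of them lay at the edge of background. Of 18 measured genes of cytosolic DNA and RNA sensing 17 were above background in at least 1 whole group. Sting1, 1 of the 17, ranged from only 7.51 to 7.62 over the arrays. In either genotype comparison 0 passed (1 with an unadjusted p under 0.05 at each age). Tbk1, the kinase that activates Irf3, had log2 changes of -0.13 ± 0.10 at P20 and 0.02 ± 0.10 at P15 (SE), and Ddx41, a helicase proposed as a DNA sensor, -0.18 ± 0.10 and -0.07 ± 0.10. Of 20 measured inflammasome and pyroptosis genes 8 were above background in at least 1 whole group. Among them were Pycard, the adaptor of Aim2, Casp1, its effector protease, and Gsdmd, which forms the pore of pyroptosis. Pycard ranged from 7.52 to 7.80 over the arrays, so its lower values were at the edge of background. None of the 20 passed in limma at P20 (0 of 20, with 0 under an unadjusted p of 0.05) or at P15 (0 of 20, with 2). Casp8 and Gsdmd, the brightest, had -0.05 ± 0.13 and 0.12 ± 0.18 at P20 and -0.44 ± 0.13 and -0.02 ± 0.18 at P15.

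Markers of blood cells, in which the p200 family is best known, gave no call at either age. Of 28 measured macrophage and leukocyte genes 22 were above background, and 0 passed in limma in KO against WT testes (2 with an unadjusted p under 0.05 at P20 and 6 at P15). Their summed linear intensity, in units of 1000 as for the sums that follow, was 10.4 to 15.1 on the KO P20 arrays and 10.8 to 13.0 on the WT P20 arrays. Cd52, a lymphocyte surface protein also made in the epididymis, had 11.74, 7.93 and 12.42 in the KO P20 replicates. In the WT P20 replicates it had 7.87, 7.87 and 10.42. It was thus high on the KO arrays that were high in epididymis genes, and also on WT P20 replicate 3. Without Cd52, a choice made after its values were seen, the sums were 9.63 to 10.3 in KO P20 testes. In WT P20 testes they were 10.6 to 11.7, so KO was lower without overlap, but a sum weighs bright genes most. Of the 28 genes 10 had a positive change at P20, with a median log2 change of -0.03, beside 0.0029 over all genes. Lyz2 had 9.44, 9.36 and 9.68 in KO P20 and 10.22, 10.38 and 10.21 in WT P20 testes. Cd74 had 8.28, 8.60 and 8.22 against 8.04, 8.00 and 8.13. H2-Ab1 and H2-Eb1 were also higher in KO without overlap, as were 8.72% of all probes. These genes were named after their values were seen. With Cd52, the P15 sums were 13.0 to 17.1 in KO and 15.5 to 17.3 in WT testes. Ptprc, Itgam, Fcgr1, Cd163, H2-Aa and Cd53 were not above background in any whole group. The summed germ cell markers were 42.8 to 49.1 in KO P20 and 45.3 to 46.9 in WT P20 testes, so the sums overlapped. Of the 12 germ cell genes 0 rose and 0 fell in limma at P20 (3 with an unadjusted p under 0.05). Their log2 changes ranged from -0.73 to 0.23, with 6 positive and a median of -0.01 (lowest adjusted p = 0.0576, limma). Over the 8 germ cell genes above background the median was -0.12. At P15 0 rose and 0 fell (1 with an unadjusted p under 0.05). Sertoli markers summed to 45.6 to 51.2 in KO P20 and 55.4 to 59.4 in WT P20 testes, where 0 of 9 had a positive change. Of these 9, 5 had an unadjusted p under 0.05 and 1 fell (Cst9, a cystatin), beside 0.311% of all probes falling. Their median log2 change was -0.18. The part of the germ cell, Sertoli and macrophage markers in the Ifi213 values was not tested. At P15 1 of 9 Sertoli markers fell (Trf, transferrin), beside 0.00442% of all probes. Of the 9, 2 had an unadjusted p under 0.05 and 6 had a positive change at P15. None of 7 Leydig, 6 peritubular, 9 endothelial and 3 erythroid genes passed in limma at either age (0 of each list, with an unadjusted p under 0.05 for 1 endothelial gene at each age and 1 peritubular gene at P15).

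Markers of tissue around the testis were also unequal at P20. Adipocyte markers summed to 2.26 to 2.42 in KO P20 and 1.20 to 1.49 in WT P20 testes. Of the 7 measured, 2 rose (Adipoq and Lpl), beside 0.731% of all probes. Epididymis markers summed to 0.632 to 3.06 in KO P20 and 0.597 to 0.877 in WT P20 testes, with 0 of 5 above background in a whole group. With KO P20 replicates 1 and 3 left out, a choice made after seeing that they were the arrays high in epididymis genes, Ifi213 had a log2 change of -1.20 ± 0.13 (SE) at P20. The remaining KO P20 array is assumed in that fit to vary like the other groups.

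Among 12043 genes above background, Ifi213 included, the pattern of Ifi213 over the 12 arrays was compared with that of every other gene. The measure was the Pearson correlation of log2 values. The highest coefficients were those of Chst1, a carbohydrate sulfotransferase (r = 0.98), C2cd4a, a nuclear C2 domain protein (0.93), Elfn2, a leucine-rich repeat membrane protein (0.92), Gstt2, a glutathione transferase (0.91), and Gldnos (0.90). Gldnos was above background only on the 3 WT P20 arrays, so its coefficient rests on that group. The points share the arrays and their normalization, and all 6 genes had their highest values on the 3 WT P20 arrays, so the coefficients describe likeness and are not tested. Chst1 averaged 8.19 ± 0.06 in KO P20 and 11.53 ± 0.15 in WT P20 testes, and 8.44 ± 0.17 in KO P15 and 9.37 ± 0.78 in WT P15 testes (SD, n = 3 each). WT P15 replicate 3, which had the highest P15 value of Ifi213, also had that of Chst1, C2cd4a, Elfn2 and Gstt2. No p200 gene and no gene of the interferon lists was among these 5. Of these 12043 genes, Ifi207 was the only p200 gene besides Ifi213. The interferon-stimulated and the interferon signalling list supplied 36 and 20 of them. With so few among so many, their absence from the 5 carries no weight.

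**Figure D4:**
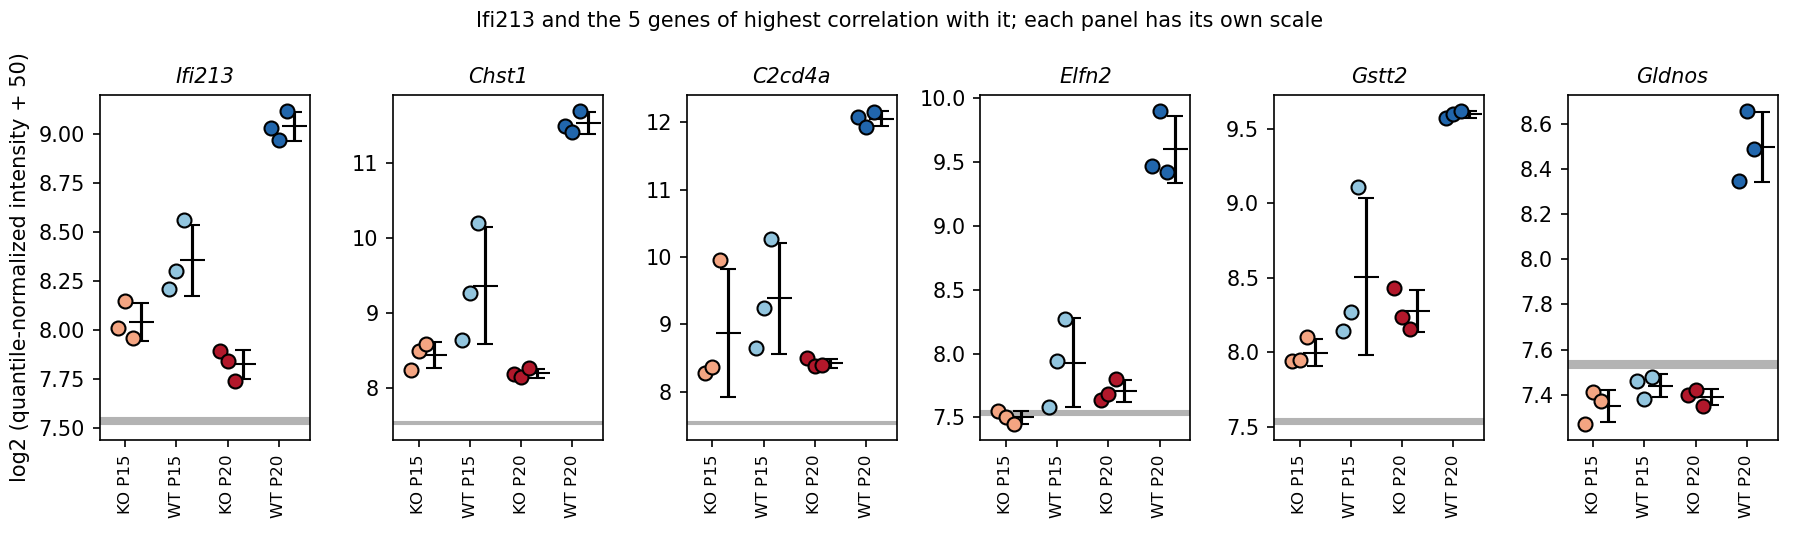
Log2 intensity of Ifi213 and of the 5 genes whose values correlated most with it over the 12 arrays, by group, each panel on its own scale. Points are arrays (replicates 1 to 3 from left), bars are mean and SD, and the grey band marks the dimmest values above background. In each panel the WT P20 arrays are highest and WT P15 replicate 3 is the highest P15 array, with Gldnos above background on the WT P20 arrays alone.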

How the data were processed

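Total RNA of whole testes was measured in 12 samples, in 4 groups of 3 that the labels call biological repeats, with an Illumina bead array for each. BeadStudio is the reading software per the submitters' processing notes, without a version. One deposited table holds raw linear intensity, for 45281 probes, and each of its array columns matched a sample. A second table by the authors holds normalized intensity. Quantile normalization of the raw table gave the same values within 0.0124 (log2, median gap 6.59e-05), so the authors' table was taken as quantile-normalized.

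Raw intensities were quantile-normalized, 50 was added and log2 was taken. The platform annotation gave 34885 probes a single gene, 18 more than 1 gene and 10378 none. A gene was represented by its probe of highest mean, and each Ifi213 probe was also read alone.

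The 4 groups entered 1 linear model (limma 3.58.1, R 4.3.3, 8 residual degrees of freedom, 2.14 prior), with Benjamini-Hochberg adjustment over all probes and a threshold of 0.05. The step was tested on simulated data. Within-group Spearman correlations were 0.897 to 0.923 and 0 array pairs were identical.

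The p200 members and all gene lists were chosen with earlier results of these data known. Named genes were all members, the other p200 genes on the array, up to 4 genes of each pathway list past the threshold between genotypes or else its 2 brightest, and the 5 genes most like Ifi213. Genes named beyond these, for passing the threshold or for their values on arrays that stood apart, were chosen after their values were seen.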

Additional observations from a re-analysis of the deposited data

Results flagged for a closer look

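In the main fit the change of Ifi213 with age ran in opposite directions in the 2 genotypes, with a small fall in KO testes. In KO testes all 3 P20 arrays (7.74 to 7.89) lay below all 3 P15 arrays (7.96 to 8.15), as on 21.3% of all probes. The log2 change was -0.22 ± 0.09 (SE). In WT testes all 3 P20 arrays (8.97 to 9.12) lay above all 3 P15 arrays (8.21 to 8.56), as on 14% of all probes. The change there was 0.68 ± 0.09. Under cyclic loess normalization the changes were -0.07 ± 0.09 in KO and 0.81 ± 0.09 in WT testes. As the mean of both probes they were -0.09 ± 0.05 and 0.32 ± 0.05. In the main fit the difference between the changes, KO minus WT, was -0.90 ± 0.12. It was not tested, because the P20 arrays are those on which Ifi213 was chosen.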

How the results depend on the processing

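Over 27 alternatives the log2 change of Ifi213 at P20 kept its direction, with a main value of -1.22. It was -1.80 and -2.16 with normexp background correction and offsets of 50 and 16, -1.36 and -1.06 without it at offsets of 16 and 100, and -0.60 as the mean of both probes, of which 1 was below background. Leaving out 1 array at a time gave -1.25 to -1.18. At P15 the change was -0.39 to -0.21 with 1 array left out (adjusted p from 0.252 to 0.916, limma) and -0.60 to -0.19 over the other settings (0.164 to 0.827), so it passed under none of them. Replicate numbers did not pair the arrays, since deviations of same-numbered arrays correlated between -0.345 and 0.188. With the number as a replicate block the P15 change was -0.32 (adjusted p = 0.658) and the P20 change -1.22, and the block changed none of the counts of members and lists at either age. For the settings, the count of members from P15 to P20 in KO testes included Ifi213, which was chosen on the P20 arrays. This count was 1 with normexp at either offset and without WT P15 replicate 3, against 0 in the main fit (0 to 1 with 1 array left out). It is a description and carries no weight as a test. Of the interferon-stimulated genes 1 passed at P15 with normexp at either offset and with an intensity trend. Of the interferon signalling genes 1 passed at P20 with array weights. Without KO P20 replicates 1 and 3 together, where replicate 2 alone stands for the group, 14 interferon-stimulated, 2 signalling and 1 inflammasome gene passed at P20. Scaling to the 75th percentile shifted the median of all probes at P15 to 0.1098, beside 0.0014, and Ifi213 was then at -0.31. No alternative using detection p-values, control probes (neqc) or slide as a block was run. Low signal over background limits the 4 members other than Ifi213.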
